A study of Mus musculus with 15 samples.

Results

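Chemokines are small secreted proteins that direct the movement of white blood cells, and the genes described here are those of the chemokines and of their receptors in mouse kidneys that lack the nuclear receptor ERRγ. Members were found by a rule on symbols: every gene of the deposited tables whose symbol starts with Ccl, Cxcl, Ccr or Cxcr and a digit, together with Cx3cl1, Cx3cr1, Xcl1 and Xcr1. The members were chosen with earlier results of these data known, so they were not tested as a set. The rule found 58 members among 23393 genes, of which 38 encode ligands and 20 encode receptors. The knockout mice carried floxed alleles of Esrrg, the gene of ERRγ, with a Sim1-Cre transgene, and their control littermates carried the same ERRg fl/fl alleles without Cre, all on the C57BL/6 strain. The labels give 3 knockout and 3 control kidney libraries of 3-month-old males, 2 knockout and 2 control libraries of 3-week-old females, and 3 knockout and 2 control libraries of 3-week-old males, made from polyadenylated RNA. Which kidney cells the Sim1-driven Cre reaches is not given in the labels, and the controls do not carry Cre, so an effect of Cre itself cannot be told apart from loss of ERRγ.

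As background, chemokines fall into the CC, CXC, CX3C and XC classes by the spacing of their first cysteines, and they act on G protein-coupled receptors on leukocytes. Inflammatory chemokines are switched on by injury and by cytokines, often through NF-kappaB or interferon signalling, and recruit monocytes, neutrophils or T cells. Homeostatic chemokines such as Cxcl12 are made in the resting tissue and hold or guide cells there. In the kidney, tubule cells, endothelial cells and resident macrophages can all make chemokines.

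Each of the 3 comparisons (1 per sex and age) was deposited as the authors' own test, with a mean of normalized counts over both genotypes, a log2 fold change, the standard error of that change and an adjusted p, and with no value per library. A member is called here where the authors' adjusted p was under 0.05. A gene counts as tested here where it has an adjusted p. The tables do not name the direction of the ratio. It was read as knockout over control because the study's title ties ERRγ to renal reabsorption, and the transporter genes Slc34a1, Slc5a2 and Slc12a3 and the tubule gene Umod had negative values in all 3 of the authors' deposited tables. Aqp2, the water channel of the collecting duct, went the other way in the authors' deposited tables, at 2.29 ± 0.49 in 3-month males, 0.46 ± 0.36 in 3-week females and 0.92 ± 0.32 in 3-week males, with no p-value in any. With the ratio turned, every "higher" below becomes "lower". Esrrg itself did not settle the reading: its log2 fold change in the authors' deposited tables was -0.87 ± 0.57 (SE, no p-value given) in 3-month males, 1.04 ± 0.17 (adjusted p = 1.70e-08) in 3-week females and 0.82 ± 0.20 (adjusted p = 0.000613) in 3-week males. Exons outside the floxed part still count as Esrrg, and which exons are floxed is not given in the labels. Steps in the lowest means showed 5, 4 and 4 libraries behind the tables of 3-month males, 3-week females and 3-week males, against 6, 4 and 5 in the labels, so at least 1 labelled library did not enter each male table. For the 3-month knockouts the source field says female, whereas the titles and the sex field say male. In the authors' deposited tables the Y-linked gene Ddx3y had a mean of 1477 and Xist a mean of 11.9 in 3-month males, against a Ddx3y mean of 0.831 and a Xist mean of 23848 in 3-week females. These means are over both genotypes, and the log2 fold change of Ddx3y in 3-month males was -0.65 ± 0.10. Reads of Ddx3y in both genotypes and the low Xist mean go with the titles and the sex field.

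Chemokine genes were largely higher in knockout kidneys. In the authors' deposited tables, 24 of the 28 members tested were called higher in 3-month males, where 29.8% of all tested genes were called higher. In 3-week females 23 of 35 members were called higher, against 8.29% of all tested genes. In 3-week males 24 of 38 were called higher, against 8.81% of all tested genes. A single call was lower, that of Ccl27a in 3-month males, where 27.8% of all tested genes were called lower. In 3-week females and 3-week males 0 members were called lower, against 10.4% and 8.52% of all tested genes. The tested members had a median log2 fold change of 2.61 in 3-month males, 1.09 in 3-week females and 1.15 in 3-week males, and the medians over all tested genes were 0.01, 0.01 and -0.01. Genes with a mean under 10 over both genotypes were not tested. A member with few reads in controls therefore entered these counts only where its knockout reads were high. The shares of all tested genes are under the same filter. The members are not independent of one another, since many lie side by side on a chromosome.

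**Figure D1:**
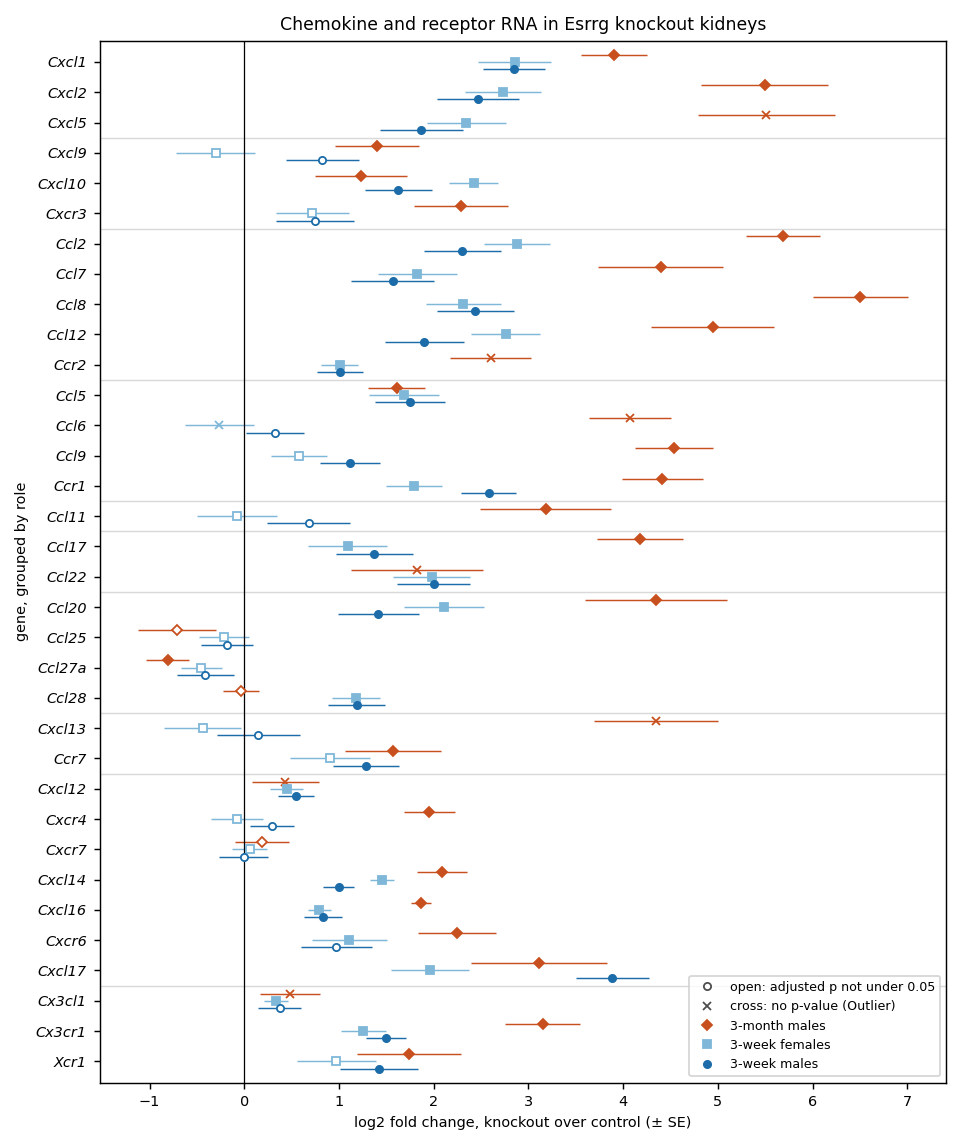
Log2 fold change, knockout over control, of the named members in the 3 tables (bars, 1 SE as deposited; filled, adjusted p under 0.05; open, not under 0.05; crosses, no p-value), grouped by role with grey lines between the groups. Monocyte and neutrophil chemokines lie to the right in every table, and Ccl25 and Ccl27a lie left of 0 in all 3.

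Ligands and receptors both took part. Of the tested ligands, 16 of 19 were called higher in 3-month males, 18 of 25 in 3-week females and 18 of 27 in 3-week males in the authors' deposited tables. Of the tested receptors, 8 of 9 were called higher in 3-month males, 5 of 10 in 3-week females and 6 of 11 in 3-week males. Of all tested genes, 29.8%, 8.29% and 8.81% were called higher in that order. These shares stand beside every count of higher calls in a single table given below. In all, 16 members were called higher in all 3 tables, 9 in 2 tables and 5 in 1 table. The shares of all genes called higher in 3, 2 or 1 of the tables are not given here. Among the 16 were Ccl2, Ccl5, Ccl7, Ccl8, Ccl12, Ccl17, Ccl20, Cxcl1, Cxcl2, Cxcl10, Cxcl14, Cxcl16, Cxcl17, Ccr1 and Cx3cr1. Of the 50 members with a fold change in all 3 tables, 33 were positive in each, and 3 (Ccl25, Ccl27a and Cxcl11) were negative in each. The share of all genes with the same sign in all 3 tables is not given here. Some of the 50 rest on few reads. Ccl25 and Cxcr7 were the 2 members tested in all 3 tables and called in none. Members with a mean under 10 had no adjusted p, and those counts leave them out, as they leave out the genes marked as outliers, for which no p-value is listed beside the fold change.

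**Figure D2:**
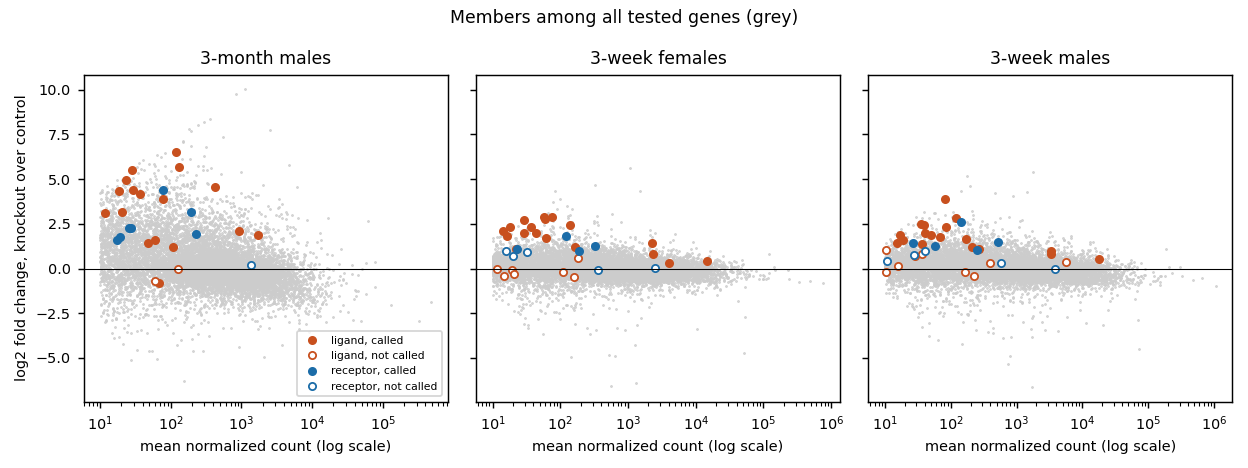
Log2 fold change, knockout over control, against the mean normalized count on a log scale for every tested gene (grey) and tested members (ligands orange, receptors blue; filled where called), 1 panel per table. Called members lie above 0 at all levels in each panel except for Ccl27a in 3-month males at -0.81, and the spread of all genes is widest in 3-month males.

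The most abundant members were not the ones that changed most. Cxcl12, the ligand that holds progenitors and lymphocytes through Cxcr4, had the highest mean normalized count in each of the authors' deposited tables, 3619 in 3-month males, 14491 in 3-week females and 18036 in 3-week males. The next were Cx3cl1, Cxcr7, Cxcl16 and Cxcl14, and the same 5 members led in every table also per kilobase of exon. Per kilobase, Cxcl16 came first in 3-month males with a mean of 575, and Cxcl12 came first in 3-week females with 1772 and in 3-week males with 2206. The tables were normalized separately, their means summed to 18805533 in 3-month males, 33861809 in 3-week females and 47478811 in 3-week males, and a level is compared with other members of its own table only. The largest fold changes fell on members with far lower means: Ccl8 had a mean of 119.2 in 3-month males in the authors' deposited table.

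**Figure D3:**
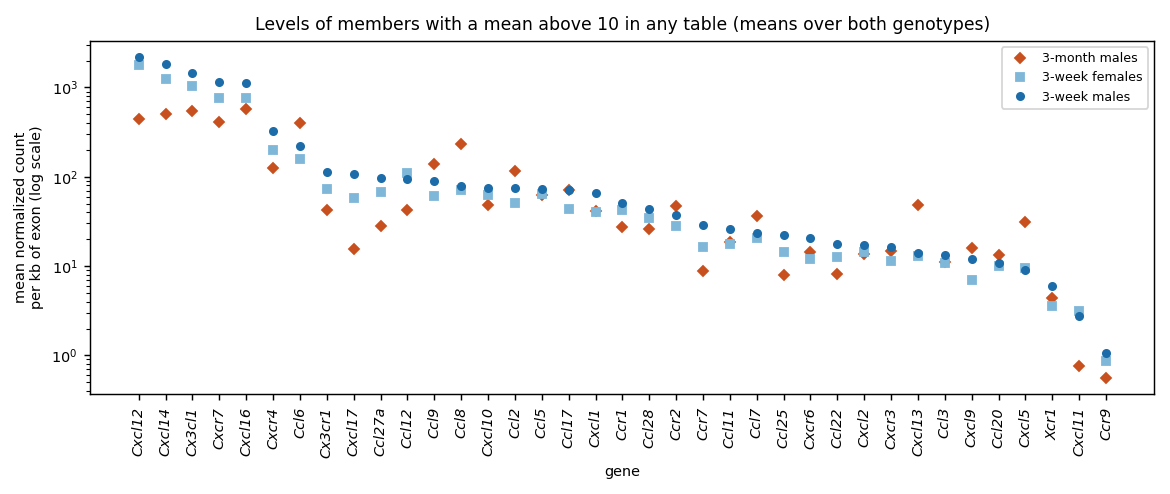
Mean normalized count per kilobase of exon on a log scale, over both genotypes together, for members with a mean above 10 in any table (symbols mark the 3 tables). A group of 5 members, Cxcl12, Cxcl14, Cx3cl1, Cxcr7 and Cxcl16, stands at the top in all 3 tables.

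Neutrophil-attracting CXC ligands were higher in every test they had. Cxcl1, the mouse counterpart of the human GRO chemokines that act on Cxcr2, had a log2 fold change of 3.91 ± 0.35 in 3-month males, 2.85 ± 0.38 in 3-week females and 2.84 ± 0.33 in 3-week males in the authors' deposited tables (adjusted p = 7.92e-28, 7.54e-12 and 6.48e-16). For Cxcl2, its close relative, the authors' deposited tables gave 5.49 ± 0.67, 2.73 ± 0.41 and 2.47 ± 0.43 in the same order (adjusted p = 4.59e-15, 9.55e-10 and 4.06e-07). Cxcl5, made by epithelial cells among others, stood at 2.34 ± 0.42 in 3-week females (adjusted p = 7.45e-07) and 1.87 ± 0.44 in 3-week males (adjusted p = 0.000326) in the authors' deposited tables. In 3-month males the authors' deposited table lists Cxcl5 at 5.51 ± 0.72 with no p-value, because it was marked as an outlier. Both tested ligands in 3-month males and all 3 tested ligands in each 3-week table were called higher.

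The genes around this group were close to the lower limit of detection. Cxcl3 had 6 reads in 3 of 5 libraries in 3-month males, 5 reads in 2 of 4 in 3-week females and 2 reads in 1 of 4 in 3-week males, as resolved from the authors' deposited means. Cxcr2, the receptor for these ligands on neutrophils, had 12, 15 and 25 reads in the same order, of which 10, 6 and 17 came from 1 library. Cxcr1 had 1 read in 3-week females and was listed at 0 in both male tables. Among 6 neutrophil markers in the tables, the 3 tested ones (S100a8, S100a9 and Csf3r) were called higher in 3-month males, and 0 of 3 in each 3-week table. The Csf3r log2 fold change was 1.94 in 3-month males, 0.68 in 3-week females and 0.55 in 3-week males in the authors' deposited tables. The neutrophil list summed to a mean of 65.3 in 3-month males with Ngp at 0, 107 in 3-week females with Mpo at 0, and 182 in 3-week males. The part of neutrophil numbers in the ligand result was not tested.

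The promoters of Cxcl1, Cxcl2 and Cxcl3 are shown because these neighbouring genes hold the same NF-kappaB letters at nearly the same distance from the start. Each is the RefSeq window of 300 bases, 250 before and 50 after the gene's start, on the gene's strand in build GRCm38.p6. Cxcl1 lies at chr5:90890995-90891294, Cxcl2 at chr5:90903649-90903948 and Cxcl3 at chr5:90785851-90786150, all on the plus strand. Capitals mark the match to GGGA, any base and TTTCC, searched on both strands and overlapping no other motif searched.
Cxcl1: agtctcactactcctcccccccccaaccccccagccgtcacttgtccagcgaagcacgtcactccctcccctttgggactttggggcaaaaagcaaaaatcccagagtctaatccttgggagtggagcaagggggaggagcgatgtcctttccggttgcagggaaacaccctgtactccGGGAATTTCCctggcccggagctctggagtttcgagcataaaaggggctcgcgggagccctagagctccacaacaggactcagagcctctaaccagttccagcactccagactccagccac
Cxcl2: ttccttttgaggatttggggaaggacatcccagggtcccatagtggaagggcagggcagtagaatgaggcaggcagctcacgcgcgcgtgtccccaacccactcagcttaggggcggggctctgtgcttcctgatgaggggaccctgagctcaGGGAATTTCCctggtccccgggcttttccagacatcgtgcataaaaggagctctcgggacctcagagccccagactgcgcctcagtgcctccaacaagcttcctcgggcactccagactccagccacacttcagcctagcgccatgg
Cxcl3: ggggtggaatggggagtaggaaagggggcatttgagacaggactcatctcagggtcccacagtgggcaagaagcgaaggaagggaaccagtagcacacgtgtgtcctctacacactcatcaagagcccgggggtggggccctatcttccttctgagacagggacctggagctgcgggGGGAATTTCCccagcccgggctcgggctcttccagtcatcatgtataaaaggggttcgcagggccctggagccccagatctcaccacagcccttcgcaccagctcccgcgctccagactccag
Counted from the gene's start, the match begins at position -71 in Cxcl1, -97 in Cxcl2 and -73 in Cxcl3. Of all 32851 promoters of this length, 0.411% hold these letters, and of the 42 members with a promoter in the table only Ccr3 holds them besides these 3. Aligned to each other, the windows of Cxcl2 and Cxcl3 were identical at 73.2% of aligned positions, those of Cxcl1 and Cxcl2 at 65.4% and those of Cxcl1 and Cxcl3 at 62%. A match of letters is a description and not a binding site. Cxcl3, with the same letters, had too few reads for an adjusted p.

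Monocyte chemokines were higher in knockout kidneys in every table, and in 3-month males Ccl8 and Ccl2 had the 2 highest values of the family. Ccl8, a ligand of mouse Ccr8 and of other CC receptors, had a log2 fold change of 6.51 ± 0.50 in 3-month males, 2.31 ± 0.40 in 3-week females and 2.44 ± 0.41 in 3-week males in the authors' deposited tables (adjusted p = 7.00e-37, 1.92e-07 and 8.18e-08). Ccl2, the main ligand that draws monocytes through Ccr2, had 5.69 ± 0.39, 2.88 ± 0.35 and 2.30 ± 0.41 in the authors' deposited tables, in that order (adjusted p = 1.06e-45, 1.27e-14 and 5.54e-07). Ccl12, a mouse Ccr2 ligand, stood at 4.94 ± 0.65, 2.76 ± 0.36 and 1.90 ± 0.42 in the authors' deposited tables (adjusted p = 2.53e-13, 2.65e-12 and 0.000109). Ccl7, another Ccr2 ligand, stood at 4.40 ± 0.66, 1.83 ± 0.42 and 1.57 ± 0.44 (adjusted p = 2.06e-10, 0.000198 and 0.00359 in the authors' deposited tables). All 4 ligands were called higher in all 3 tables.

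Ccr2, the receptor of Ccl2, Ccl7 and Ccl12, moved less than these ligands. Ccr2 had a log2 fold change of 1.01 ± 0.19 in 3-week females and 1.01 ± 0.24 in 3-week males in the authors' deposited tables, both called (adjusted p = 5.93e-06 and 0.000504). In 3-month males the authors' deposited table gives 2.60 ± 0.43 for Ccr2, with no p-value. Of 9 macrophage markers, 8 of 8 tested were called higher in 3-month males, 8 of 9 in 3-week females and 8 of 9 in 3-week males. Lyz2, a lysozyme of macrophages and neutrophils, had a log2 fold change of 5.77, 1.21 and 1.53 in the authors' deposited tables, and Emr1, which encodes F4/80, had 3.26, 1.10 and 1.15. Csf1r was the marker not called at 3 weeks, at -0.02 in 3-week females and 0.40 in 3-week males (adjusted p = 0.978 and 0.192 in the authors' deposited tables). In 3-month males Csf1r was called higher at 1.53. The macrophage list had a median log2 fold change of 3.87 in 3-month males, 1.04 in 3-week females and 1.47 in 3-week males. Its means summed to 10879, 8932 and 13866. In whole tissue, more cells of a type and more RNA per cell cannot be told apart, and the part of macrophage numbers in the chemokine results was not tested.

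Ccr1 and its ligands were called higher with less uniformity. Ccr1, a receptor of monocytes and neutrophils, was higher by a log2 fold change of 4.41 ± 0.43 in 3-month males, 1.79 ± 0.30 in 3-week females and 2.58 ± 0.29 in 3-week males in the authors' deposited tables (adjusted p = 1.14e-23, 5.69e-08 and 6.30e-17). Ccl5, also known as RANTES, a Ccr1 ligand, was called higher with nearly equal values of 1.61 ± 0.30, 1.69 ± 0.37 and 1.75 ± 0.37 (adjusted p = 5.90e-07, 8.58e-05 and 4.98e-05 in the authors' deposited tables). Ccl9, a mouse ligand of Ccr1, was called higher in 3-month males at 4.54 ± 0.41 (adjusted p = 2.80e-27) and in 3-week males at 1.11 ± 0.32 (adjusted p = 0.00424) in the authors' deposited tables. Its value of 0.58 ± 0.30 in 3-week females was not called (adjusted p = 0.177 in the authors' deposited table). Ccl6, a neighbour of Ccl9 and also a Ccr1 ligand, had no p-value in 3-month males (4.07 ± 0.44) or 3-week females (-0.26 ± 0.36), and its 0.32 ± 0.31 in 3-week males was not called (adjusted p = 0.559, all in the authors' deposited tables). Ccl3, also a Ccr1 ligand, drew 31 of its 50 reads in 3-month males and 29 of its 40 reads in 3-week females from 1 library.

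Of the interferon-inducible Cxcr3 ligands, Cxcl10 alone was called in all 3 tables. Cxcl10 had a log2 fold change of 1.23 ± 0.49 in 3-month males, 2.42 ± 0.26 in 3-week females and 1.63 ± 0.36 in 3-week males in the authors' deposited tables (adjusted p = 0.0222, 3.32e-18 and 0.000109). Cxcl9, a ligand of the same receptor, was called higher at 1.40 ± 0.45 in 3-month males (adjusted p = 0.00390), and its values of -0.30 ± 0.42 in 3-week females and 0.83 ± 0.39 in 3-week males were not called (adjusted p = 0.681 and 0.134 in the authors' deposited tables). Cxcr3, their receptor on activated T cells and NK cells, was called higher at 2.29 ± 0.50 in 3-month males (adjusted p = 1.44e-05) and not at 0.72 ± 0.39 in 3-week females or 0.75 ± 0.41 in 3-week males (adjusted p = 0.201 and 0.231 in the authors' deposited tables). Cxcl11 was called in no table, and the annotation marks it as a polymorphic pseudogene. Of 8 interferon response genes, Cxcl10 itself included, 8 of 8 were called higher in 3-month males, 2 of 8 in 3-week females with Irf7 called lower, and 3 of 8 in 3-week males. Exons of Cxcl10 share 133 of 2252 bases with Art3 on the opposite strand, and the sources used here do not say whether the counting used strand.

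Cxcl10 is also 1 of 3 members whose promoter holds the interferon response letters, GAAA, any 2 bases and GAAA on either strand, found in 3.44% of all promoters, the others being Ccl19 and Cxcl14. Its window, at chr5:92348840-92349139 on the minus strand, is shown with the match in capitals.
Cxcl10: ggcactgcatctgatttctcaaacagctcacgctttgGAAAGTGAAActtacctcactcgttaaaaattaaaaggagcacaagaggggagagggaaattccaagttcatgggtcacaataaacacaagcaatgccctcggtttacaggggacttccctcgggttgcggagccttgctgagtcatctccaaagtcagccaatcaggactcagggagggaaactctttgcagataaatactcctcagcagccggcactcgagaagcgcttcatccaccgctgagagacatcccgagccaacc
The match begins at position -213 from the start of Cxcl10. In Cxcl14 it begins at position -172, and Ccl19 was listed at 0 in every table.

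The T cell and dendritic cell chemokines were called higher in part. Ccl17, a ligand of Ccr4 on T helper cells, had a log2 fold change of 4.18 ± 0.46 in 3-month males, 1.09 ± 0.41 in 3-week females and 1.37 ± 0.40 in 3-week males in the authors' deposited tables (adjusted p = 8.10e-19, 0.0459 and 0.00635). Ccl22, the other ligand of Ccr4, was called higher at 1.98 ± 0.41 in 3-week females and 2.00 ± 0.39 in 3-week males (adjusted p = 2.26e-05 and 6.61e-06), and the authors' deposited table of 3-month males gives 1.82 ± 0.70 with no p-value. Ccr7, which guides dendritic and T cells to lymph nodes, was called higher at 1.57 ± 0.51 in 3-month males and 1.28 ± 0.35 in 3-week males (adjusted p = 0.00480 and 0.00289), and not at 0.90 ± 0.42 in 3-week females (adjusted p = 0.124, all in the authors' deposited tables). Xcr1, the receptor of cross-presenting dendritic cells, showed the same calls, with 1.74 ± 0.55 in 3-month males, 0.97 ± 0.42 in 3-week females and 1.42 ± 0.41 in 3-week males (adjusted p = 0.00369, 0.0886 and 0.00594 in the authors' deposited tables). Of the dendritic cell markers, Xcr1 included, 4 of 5 tested were called higher in 3-month males, 1 of 6 in 3-week females and 3 of 6 in 3-week males. Of the T cell markers, 6 of 6 were called higher in 3-month males, 1 of 5 in 3-week females and 2 of 6 in 3-week males. Cd4, called in all 3, had log2 fold changes of 2.28, 1.51 and 1.82 in the authors' deposited tables. Ccl19 and the 3 Ccl21 genes, whose products are the ligands of Ccr7, were listed at 0 in all 3 tables. The Ccl21 genes are near-identical copies, and the sources used here do not say how reads that fit several places were counted.

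Cxcl13, which draws B cells through Cxcr5, had a p-value in the 3-week tables alone. The authors' deposited table of 3-month males gives it a log2 fold change of 4.35 ± 0.65 with no p-value. Its values of -0.44 ± 0.41 in 3-week females and 0.15 ± 0.44 in 3-week males were not called (adjusted p = 0.507 and 0.886 in the authors' deposited tables). Cxcr5 had a mean under 10 in all 3 tables, and 20 of its 30 reads in 3-month males came from 1 library. Of the B cell markers, 1 of 2 tested (Cd22) was called higher in 3-month males, 0 of 5 in 3-week females and 0 of 5 in 3-week males. NK cell markers stood at 1 of 1 (Nkg7) higher in 3-month males, 0 of 2 in 3-week females and 0 of 2 in 3-week males.

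The eosinophil chemokine Ccl11, or eotaxin, was called higher in 3-month males, with a log2 fold change of 3.18 ± 0.69 (adjusted p = 1.49e-05 in the authors' deposited table). In 3-week females it stood at -0.07 ± 0.42 and in 3-week males at 0.68 ± 0.44, and neither was called (adjusted p = 0.934 and 0.327 in the authors' deposited tables). Ccl24, another eotaxin, drew 38 of its 48 reads in 3-month males from 1 library, and Ccl26 was listed at 0. Of 3 eosinophil markers, 0 were tested in 3-month males, and 0 of 1 (Epx) was called in either 3-week table.

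The mucosal and skin chemokines went in different directions. Ccl20, the ligand of Ccr6, was called higher in all 3 tables, with a log2 fold change of 4.35 ± 0.75 in 3-month males, 2.11 ± 0.42 in 3-week females and 1.41 ± 0.43 in 3-week males (adjusted p = 4.32e-08, 1.41e-05 and 0.00867 in the authors' deposited tables). Ccl28, a ligand of Ccr10 and Ccr3 made by epithelia, was called higher at 1.18 ± 0.25 in 3-week females and 1.19 ± 0.30 in 3-week males (adjusted p = 5.45e-05 and 0.00109), and stood at -0.04 ± 0.19 in 3-month males (adjusted p = 0.874, all in the authors' deposited tables). Ccl27a, the other Ccr10 ligand, was called lower at -0.81 ± 0.23 in 3-month males (adjusted p = 0.00106), and its -0.45 ± 0.21 in 3-week females and -0.41 ± 0.30 in 3-week males were not called (adjusted p = 0.130 and 0.409 in the authors' deposited tables). Shifting the fold changes so that both genotypes had equal total counts adds 0.58 to every gene in 3-month males, 0.15 in 3-week females and 0.18 in 3-week males. With this shift Ccl27a in 3-month males stood at -0.23 (adjusted p = 0.369) and was no longer called, and Ccl28 in 3-month males stood at 0.54 (adjusted p = 0.00725) and was called higher. Ccl27a has a near-identical copy, Ccl27b, listed at 0. Ccl25, which guides cells through Ccr9, was called in no table, at -0.71 ± 0.41, -0.21 ± 0.27 and -0.18 ± 0.27 (adjusted p = 0.126, 0.643 and 0.747 in the authors' deposited tables). Ccr6, the receptor for Ccl20, had 9, 4 and 3 reads in 3-month males, 3-week females and 3-week males, and in 3-week females all 4 were in 1 library.

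The promoter of Ccl20 is shown because it holds the letters of the ERR element, TNAAGGTCA, searched on both strands, to which ERR proteins can bind, in a gene called higher in all 3 tables. It lies at chr1:83116516-83116815 on the plus strand, and the match, in capitals, reads on the opposite strand.
Ccl20: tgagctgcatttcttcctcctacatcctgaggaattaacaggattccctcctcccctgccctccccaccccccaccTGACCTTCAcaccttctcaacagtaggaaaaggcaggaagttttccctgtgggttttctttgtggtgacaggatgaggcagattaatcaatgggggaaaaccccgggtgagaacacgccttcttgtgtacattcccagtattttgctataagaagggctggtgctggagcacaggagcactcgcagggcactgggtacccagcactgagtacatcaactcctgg
It begins at position -174 from the start of Ccl20. The letters are in 1.28% of all promoters, and among members also in those of Ccl27a, the only member called lower in any table, and Ccl27b. Binding was not measured in these data.

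Among the stromal and epithelial CXC members, Cxcl14, Cxcl16 and Cxcl17 were called higher in every table. Cxcl16, a membrane-bound ligand of Cxcr6 that also acts as a scavenger receptor, had a log2 fold change of 1.87 ± 0.11 in 3-month males, 0.79 ± 0.12 in 3-week females and 0.83 ± 0.20 in 3-week males in the authors' deposited tables (adjusted p = 1.53e-65, 5.27e-09 and 0.000514). Cxcl16 shares 552 of its 3021 exon bases with Zmynd15 on the opposite strand. Cxcr6, its receptor on T cells, was called higher at 2.24 ± 0.41 in 3-month males and 1.11 ± 0.40 in 3-week females (adjusted p = 2.33e-07 and 0.0328), and missed the threshold at 0.97 ± 0.38 in 3-week males (adjusted p = 0.0573, all in the authors' deposited tables). Cxcl14, an abundant epithelial chemokine, had 2.09 ± 0.26, 1.45 ± 0.13 and 1.00 ± 0.17 in the authors' deposited tables (adjusted p = 2.38e-14, 5.41e-27 and 7.49e-08). Cxcl17, a mucosal chemokine, had 3.11 ± 0.72, 1.96 ± 0.41 and 3.89 ± 0.39 (adjusted p = 5.67e-05, 3.86e-05 and 3.95e-21 in the authors' deposited tables), the highest value of any tested member in 3-week males.

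Of Cxcl12 and its receptors, Cxcl12 alone was called at 3 weeks, and Cxcr4 alone was called at 3 months. Cxcl12 was called higher at 0.45 ± 0.17 in 3-week females and 0.54 ± 0.19 in 3-week males (adjusted p = 0.0484 and 0.0287), and the authors' deposited table of 3-month males gives 0.43 ± 0.35 with no p-value. These were the called members nearest to the threshold in both 3-week tables. Cxcr4, its signalling receptor, was called higher at 1.95 ± 0.27 in 3-month males (adjusted p = 5.77e-12), and not at -0.08 ± 0.28 in 3-week females or 0.29 ± 0.23 in 3-week males (adjusted p = 0.889 and 0.461 in the authors' deposited tables). Cxcr7, now named Ackr3, an atypical receptor that takes up Cxcl12 without G protein signalling, stood at 0.19 ± 0.29, 0.06 ± 0.18 and -0.0045 ± 0.26 and was called in no table (adjusted p = 0.586, 0.879 and 0.995 in the authors' deposited tables). With equal total counts, Cxcr7 stood at 0.77 in 3-month males and passed the threshold (adjusted p = 0.0119), so its lack of a call there depends on the scaling. Of 5 endothelial markers, 1 was called higher (Cdh5) and 1 lower (Kdr) of 3 tested in 3-month males, 5 of 5 were called lower in 3-week females and 3 of 5 in 3-week males.

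The CX3C pair differed between ligand and receptor. Cx3cr1, the receptor of resident macrophages and monocytes, was higher by a log2 fold change of 3.15 ± 0.39 in 3-month males, 1.26 ± 0.24 in 3-week females and 1.50 ± 0.21 in 3-week males in the authors' deposited tables (adjusted p = 1.58e-14, 3.12e-06 and 1.68e-10). Its ligand Cx3cl1, or fractalkine, a membrane-anchored chemokine of endothelium and epithelium, was called at 0.33 ± 0.13 in 3-week females only (adjusted p = 0.0474). It stood at 0.38 ± 0.23 in 3-week males (adjusted p = 0.289) and at 0.49 ± 0.32 in 3-month males, with no p-value, in the authors' deposited tables. The female calls of Cx3cl1, Cxcl12 and Ccl17 rested on the set of genes the p-values were adjusted over: over every gene with a fold change they had adjusted p-values of 0.0577, 0.0589 and 0.0560.

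The genes most often named with chemokines followed in part. Of 12 genes of NF-kappaB and cytokine signalling, 9 of 9 tested were called higher in 3-month males, 7 of 10 in 3-week females and 7 of 11 in 3-week males. Vcam1 and Icam1, adhesion molecules that leukocytes bind on vessels, had log2 fold changes of 4.05 and 1.54 in 3-month males, 1.04 and 1.07 in 3-week females and 1.53 and 1.24 in 3-week males in the authors' deposited tables. Csf1, the growth factor of macrophages, had 3.08, 1.10 and 1.23 in the authors' deposited tables. Other genes of this list were tested and not called at 3 weeks. In 3-week females and 3-week males, Nfkb1 stood at 0.23 and 0.08, Nfkbia at -0.25 and -0.30, and Il1b at -0.17 and -0.01. Among the atypical receptors and platelet chemokines, a list that holds Cxcr7, 4 of 6 tested were called higher in 3-month males, and 1 of 7 higher and 1 of 7 lower in each 3-week table. Those in the 3-week tables were Pf4, platelet factor 4, called higher at 1.58 in 3-week females and 1.48 in 3-week males, and Ccrl2, an atypical receptor, called lower at -0.78 and -0.73 in the authors' deposited tables. The tubule and podocyte list, part of the reading of the ratio's direction, had 2 of 2 tested called lower in 3-month males, 2 of 3 in 3-week females and 5 of 5 in 3-week males, and 0 of 6 were listed at 0. Aqp2, positive in all 3 tables, is the member of that list with no p-value in any of them.

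Many members lie in gene clusters, given here in the GENCODE M21 annotation of GRCm38, with at most 300 kb between neighbours. Beside the counts of each cluster, 29.8% of all tested genes were called higher in 3-month males. The shares were 8.29% in 3-week females and 8.81% in 3-week males. The cluster at chr11:82035571-82305690 holds Ccl2, Ccl7, Ccl11, Ccl12, Ccl8 and Ccl1, and 5 of 5 tested genes there were called higher in 3-month males, 4 of 5 in 3-week females and 4 of 5 in 3-week males. Ccl11 was the tested gene without a call at 3 weeks, although Ccl7 and Ccl12 on either side of it were called higher. The cluster at chr5:90759360-90905938 holds Cxcl5, Cxcl3, Cxcl1 and Cxcl2, with 2 of 2, 3 of 3 and 3 of 3 tested genes called higher in that order. The receptor cluster on chromosome 9 holds Ccr9, Cxcr6, Xcr1, Ccr1, Ccr1l1, Ccr3 and Ccr2 among others. Of these, Cxcr6, Xcr1 and Ccr1 were called higher in 3-month males, Cxcr6, Ccr1 and Ccr2 in 3-week females, and Xcr1, Ccr1 and Ccr2 in 3-week males.

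The other clusters were mixed, and the same shares of all tested genes stand beside their small counts. At chr11:83525778-83664683, with Ccl5, Ccl9, Ccl6, Ccl3 and Ccl4, 2 of 2, 1 of 2 and 2 of 4 tested genes were called higher. At chr5:92321347-92365485, with Cxcl9, Cxcl10 and Cxcl11, 2 of 2, 1 of 3 and 1 of 3 were called higher. At chr8:94745590-94812036, with Ccl22, Cx3cl1 and Ccl17, 1 of 1, 3 of 3 and 2 of 3 were called higher. At chr4:42655251-42773993, Ccl27b, Ccl19 and Ccl21a were all listed at 0 in the 3 tables. Neighbours in a cluster are not counted as independent genes here, and whether they share reads was not tested.

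**Figure D4:**
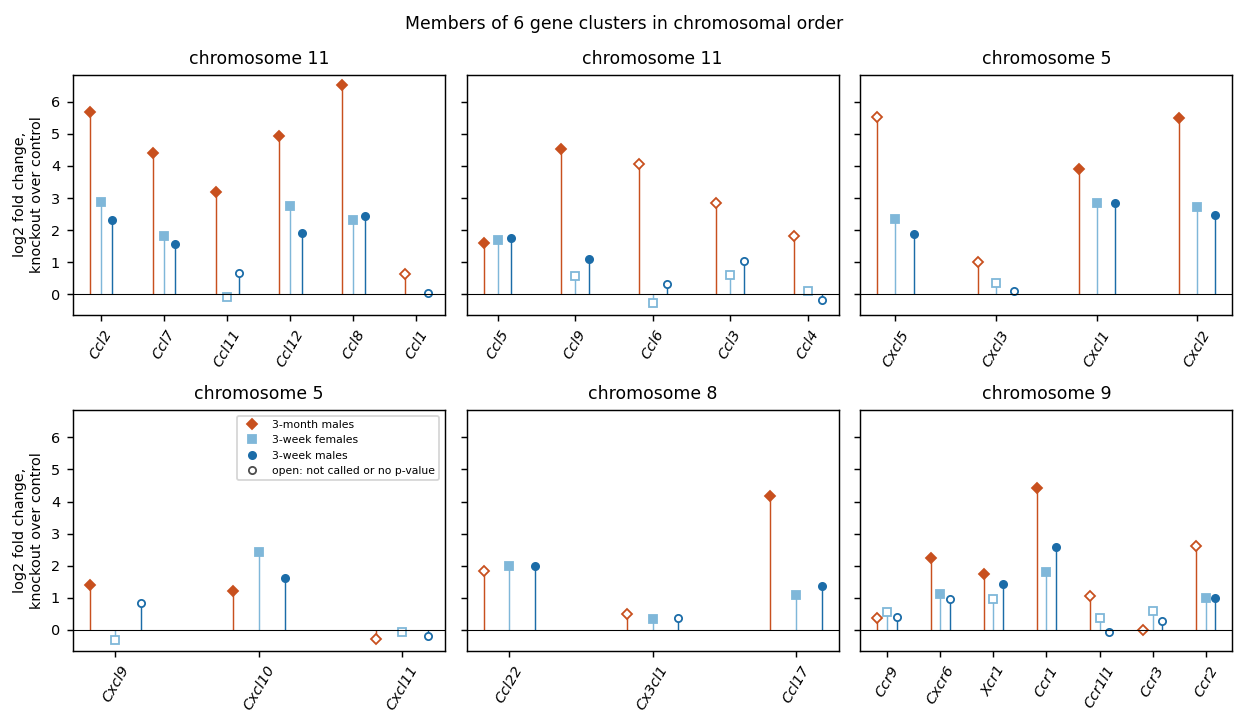
Log2 fold change, knockout over control, of the members of 6 gene clusters in chromosomal order, with 1 stem per table (filled, called; open, not called or no p-value). Ccl11 is open in both 3-week tables between Ccl7 and Ccl12, whose stems are filled in all 3.

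For part of the members, the knockout effect differed between the ages of males. The difference was tested as the 3-month minus the 3-week log2 fold change in males, by a 2-sided normal test on both standard errors with Benjamini-Hochberg adjustment over 15912 genes. Of the 44 members with a p-value for it, 17 had a positive difference past the threshold, against 13.8% of all genes, and 1 had a negative one, against 8.16%. Fold changes in the tables appear to be moderated towards 0, since the standard errors do not pass 1.10 in 3-month males and 0.44 in 3-week males, and the 3-week tables are then shrunk more. With that moderation undone approximately, an alternative chosen after the data were seen, 10 of the 28 members tested in both tables had a positive difference past the threshold and 1 a negative one, against 14.8% and 9.48% of all genes. On the same 28 members, 15 had a positive difference past the threshold as deposited.

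The 10 were Ccl2, Ccl8, Ccl9, Ccl12, Ccl17, Ccr1, Cx3cr1, Cxcl14, Cxcl16 and Cxcr4. Ccl9 had the smallest adjusted p, with a difference of 3.42 ± 0.52 from 4.54 at 3 months and 1.11 at 3 weeks (adjusted p = 2.53e-09, or 8.51e-08 with moderation undone). Ccl8 had the largest difference, 4.07 ± 0.64 (adjusted p = 1.76e-08, or 0.000303 with moderation undone). Cxcr4 differed by 1.66 ± 0.36 (adjusted p = 5.78e-05, or 0.000110 with moderation undone). Ccl28 was the negative one, at -1.23 ± 0.36 (adjusted p = 0.00479, or 0.00323 with moderation undone). Ccl5 and Cxcl10 were among those with no call of a difference. Age is confounded with the set of libraries, their number and their depth, which cannot be told apart from age here.

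**Figure D5:**
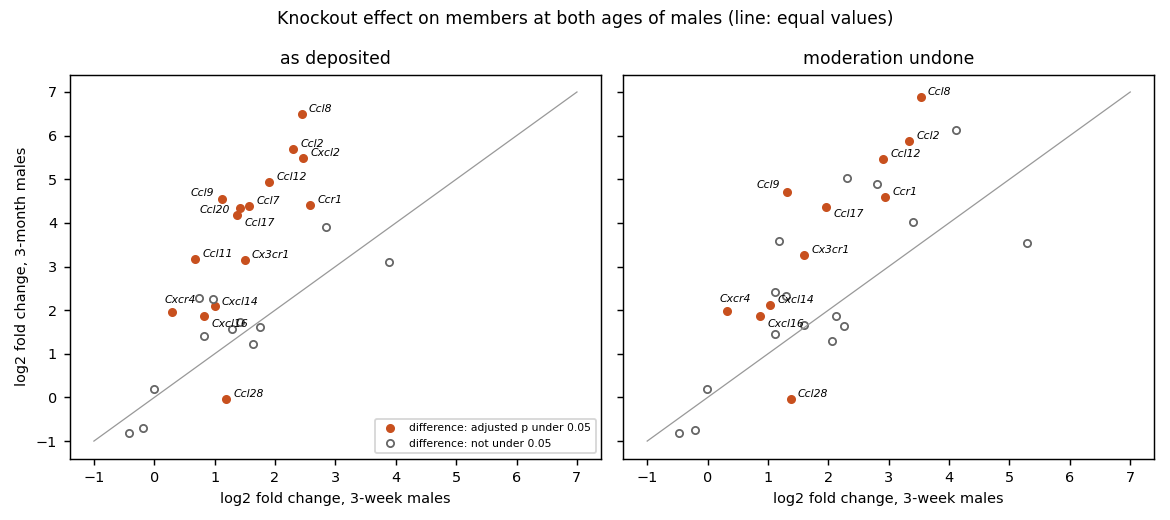
Log2 fold change, knockout over control, in 3-month males (vertical axis) against 3-week males (horizontal axis) for members tested in both, as deposited (left) and with the moderation of the fold changes undone approximately (right), with the line of equal values (filled, adjusted p of the difference under 0.05). Most members lie above the line in both panels, and Ccl28 lies below it.

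Between the sexes at 3 weeks no difference was called. Of 49 members with a p-value for the female minus male difference, 0 passed the threshold in the normal test, as did 0 of 16852 genes, and 3 members and 249 genes (1.48%) had an unadjusted p under 0.05. The member differences ran between -1.93 and 0.86, with a median of -0.04. The lowest was that of Cxcl17, -1.93 ± 0.57, from 1.96 in females and 3.89 in males (unadjusted p = 0.000664, adjusted p = 1.00 over all genes). The lack of calls does not show that the sexes are alike. Across both 3-week tables, 21 members were called higher in each. The share of all genes called higher in both is not given here.

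Members with few reads were not tested. Of those with a mean under 10, 14 of 16 had a positive log2 fold change in 3-month males, 12 of 15 in 3-week females and 9 of 13 in 3-week males in the authors' deposited tables. The share of all genes with a mean under 10 that had a positive value is not given here. Several of these members rest on very few reads, such as Ccr3 with 2 reads in 3-month males. Their signs are therefore not read as a direction of the family. A further 7 members in each table were listed at 0, and 6 of them (Ccl19, Ccl21a, Ccl21b, Ccl21c, Ccl26 and Ccl27b) in all 3. In the 3-week tables the highest read count of a member with a mean under 10 was 40, and in 3-month males it was 50, over all libraries of the table. At that depth the receptors Ccr3, Ccr4, Ccr6, Ccr8 and Ccr10 had no adjusted p in any table. The ligands Ccl17 and Ccl22 (of Ccr4), Ccl20 (of Ccr6) and Ccl28 (of Ccr10 and Ccr3) had an adjusted p in at least 2. So did Ccl8, given above as a ligand of mouse Ccr8.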

How the data were processed

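RNA-seq libraries of whole kidneys were grouped by genotype, sex and age from the titles, 15 libraries in 6 groups, with stranded mRNA preparation (TruSeq), per the labels' protocols. Per the submitters' processing notes, the authors used STAR, DESeq2, HOMER and build mm10, with no versions. The authors deposited 3 comparison tables: per the file headers, they hold the mean normalized count (a signal over all libraries), a log2 fold change, its standard error, and a p-value with an adjusted p-value. No value per library is in them. The authors' columns carry the names that DESeq2 gives. The authors' p-values equalled the normal p of fold change over standard error within 1% for 100% of genes. Genes with a mean under 10 carry the status Low and no adjusted p. The status Outlier covers 1513, 843 and 613 genes in 3-month males, 3-week females and 3-week males, by a rule that the sources used here do not state.

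From these tables, 27 rows with symbols turned into dates were left out, which left 23393 genes. Members and gene lists were chosen with earlier results of these data known, so no list was tested as a set. Calls are the authors' adjusted p under 0.05, since the tables hold no counts per library for a count test. The text names every member called in any table (except 1 that is counted and not reported here), the 4 of highest mean among those called in none, every member marked as an outlier, and up to 3 genes per other list and table. Differences between tables were tested with a 2-sided normal test and Benjamini-Hochberg adjustment over all genes (scipy 1.17.1, pandas 2.3.3), and the script was tested on simulated data. Reads behind means under 10 were resolved from each library's step (tolerance 5e-08), which gives reads but not the genotype of a library. Moderation was undone by reading the prior's width from the largest standard error. Positions are from GENCODE M21, and promoters from RefSeq for GRCm38.p6. The labels name littermates and do not say whether each library is 1 animal, so p-values measure the spread between these libraries, which may be technical. Alternatives were other thresholds, filters, scalings and adjustment sets.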

Additional observations from a re-analysis of the deposited data

Results flagged for a closer look

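The knockout effect differed between ages in males for the members given here, by the normal test of the 3-month minus the 3-week log2 fold change with adjustment over 15912 genes, of which 13.8% were positive and 8.16% negative past the threshold. Monocyte chemokines had differences of 4.07 (Ccl8), 3.38 (Ccl2), 3.04 (Ccl12) and 2.83 (Ccl7). The differences of other ligands were 3.42 for Ccl9, 3.03 for Cxcl2, 2.93 for Ccl20, 2.81 for Ccl17, 2.50 for Ccl11, 1.09 for Cxcl14 and 1.04 for Cxcl16. Among receptors they were 1.83 for Ccr1, 1.66 for Cx3cr1 and 1.66 for Cxcr4. Ccl28 had the single negative difference, -1.23. Ccl24 (2.43) and Xcl1 (2.33) rest on 48 and 20 reads at 3 months and 31 and 16 reads at 3 weeks, and neither had an adjusted p in either table.

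With moderation undone, the differences of Ccl11, Ccl20, Ccl7 and Cxcl2 no longer passed (adjusted p = 0.0920, 0.0575, 0.148 and 0.147). Their undone values were 2.39 ± 1.09, 2.72 ± 1.12, 2.07 ± 1.07 and 2.02 ± 1.04, against 2.50 ± 0.82, 2.93 ± 0.87, 2.83 ± 0.79 and 3.03 ± 0.80 as deposited. Macrophage markers, with a median log2 fold change of 3.87 at 3 months and 1.47 at 3 weeks in males, moved with these differences, and their part was not tested.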

How the results depend on the processing

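Of the 28 members with an adjusted p in both male tables, 15 had a positive age difference past the threshold as deposited and 10 with moderation undone. Over all 44 members with a p-value for it the deposited count was 17. With a mean of at least 50, 12 members were called higher in 3-month males and 14 in 3-week females, against 24 and 23, as fewer members were tested. That mean is also over both genotypes, so this alternative does not remove the tie between filter and fold change. The single lower call in 3-month males, that of Ccl27a, became 0 with equal total counts or with a log2 fold change of at least 1. Leaving out members with a near-identical paralog takes out Ccl27a itself, so the 0 under that setting was fixed in advance. Over every member with a fold change, the median was 1.87 in 3-month males and 0.61 in 3-week females, against 2.61 and 1.09, and with equal total counts it was 3.19 in 3-month males. Equal total counts turned the sign of Cxcr7 in 3-week males (0.17), of Ccl11 (0.077) and Cxcr4 (0.072) in 3-week females, and of Ccl28 in 3-month males (0.54). Median centring moved Cxcr7 in 3-week males to 0.0010, and the female calls of Cx3cl1 and Cxcl12 were lost (adjusted p = 0.0547 and 0.0538). Other counts of calls stayed within 1.5 times their value under the alternatives run. Leaving out a library was not possible without values per library. No paired analysis was possible because the tables hold no value per library and no replicate number is shared by groups. Depth limits members with a mean under 10, which had at most 50 reads in a table.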
